A study of Mus musculus with 14 samples.

Results

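The 36 genes described here are cell cycle and proliferation genes, listed by name for their part in DNA replication and cell division, out of 55487 genes counted in RNA from mouse intervertebral discs. RNA was sequenced from the caudal discs of 14 male mice, with 5 discs pooled per mouse and 1 library per mouse. The db/db mice (n = 3) carry 2 mutant copies of the leptin receptor gene *Lepr* in every cell, and the db/+ mice (n = 3) are their heterozygous littermates, which carry the same allele once. Both were taken at about 12 weeks of age. The STZ-HFD mice (n = 4, C57BL/6J) ate a high-fat diet for 4 to 6 weeks, received a single injection of streptozotocin, a toxin of the insulin-producing beta cell, at 100 mg/kg, and stayed on the diet for 12 weeks more. The Con+Veh mice (n = 4, C57BL/6J, labelled wild type) ate chow and received citrate buffer only. The study's methods give the C57BL/6 mice as 12 weeks old. Read as the age at the start, this makes both of their groups older at harvest than the db groups, by the weeks of diet above. The methods name no strain for the db mice. The db groups received no injection and no high-fat diet, so the control groups differ in genotype, age and handling at once.

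Dividing cells copy their DNA in S phase and separate it in mitosis. Before S phase, E2F factors switch on the genes of nucleotide synthesis and of the MCM helicase, which unwinds DNA at the replication fork, and later the B-MYB and FOXM1 factors, through the MuvB complex, switch on the cyclins, kinases, motors and kinetochore proteins of mitosis. Adult discs hold few dividing cells: the notochord-derived nucleus pulposus and the annulus fibrosus turn over slowly, and division in the tail continues for longer in the neighbouring cartilage and growth plates and in bone marrow.

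Low counts stood behind these genes. The libraries held 16076908 to 58943169 counts, of which 28.06% to 60.25% lay on ribosomal RNA genes. The 36 genes together took 2021 to 9934 counts of a library, and 3 counts, taken as the limit below which a level is not told from 0, corresponded to 0.0431 to 0.163 CPM (counts scaled to a library of 1000000). For all CPM in this text, the library total was first multiplied by its TMM factor, a scaling factor between libraries. Of the 36 genes, 33 passed the filter for testing, which asked for more than 1 CPM, unscaled, in at least 3 libraries, as 16915 genes did. Levels of 1 or 2 counts are printed as measured and lie under that limit. *Cdk1*, *Ccnb1* and *Bub1* failed the filter for testing, and *Aurkb* passed it only through its db/+ libraries.

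STZ-HFD replicate 1 stood apart from the other libraries. It had the fewest counts, 16076908, and a TMM factor of 1.58 against 0.693 to 0.742 in the other STZ-HFD libraries, and the fit gave it a weight of 0.379 against 0.688 to 1.53. Among its genes with 1 to 10 counts, 83.1% had an even count, against 59.3% to 73.1% in the other 13 libraries. Even counts thus outnumbered odd ones in all 14 libraries, so 1 count need not be 1 independent fragment. Whether both reads of a pair were counted was not tested. Con+Veh replicate 1 had the lowest weight of all, 0.275. The STZ-HFD sums, calls and the values that change most are also given without replicate 1.

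The promoters of these genes were searched for short letters, of which the E2F and MuvB complexes are known to read some. Of these promoters, 5 are shown because the results below turn on their genes. RefSeq windows from 250 bases before to 50 bases after the transcription start (GRCm38.p6) were found for 29 of the 36 genes. The letters searched on both strands were the cell cycle homology region (CHR; TTTGAA or TTCGAA), the CCAAT box (CCAAT), and E2F sites (TTTGGCGC, TTTCCCGC, TTTCGCGC or TTTGCCGC), and none of these contains another. Below are 150 bases before to 30 bases after the start, 5′ to 3′ on the strand of the gene, with matches to any of these letters in capitals. They lie at chr7:135716350-135716529 (minus strand) for *Mki67*, chr9:70421525-70421704 (minus) for *Ccnb2*, chr11:99024160-99024339 (minus) for *Top2a*, chr11:117849087-117849266 (plus) for *Birc5* and chr1:128359676-128359855 (minus) for *Mcm6*.
Mki67: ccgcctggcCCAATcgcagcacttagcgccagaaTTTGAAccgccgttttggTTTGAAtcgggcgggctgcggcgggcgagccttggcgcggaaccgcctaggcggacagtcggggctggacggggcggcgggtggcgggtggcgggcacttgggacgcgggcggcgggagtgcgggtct
Ccnb2: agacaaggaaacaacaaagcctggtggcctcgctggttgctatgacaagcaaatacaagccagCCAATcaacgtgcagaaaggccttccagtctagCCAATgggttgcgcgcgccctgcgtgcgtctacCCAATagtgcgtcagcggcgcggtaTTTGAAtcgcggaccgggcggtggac
Top2a: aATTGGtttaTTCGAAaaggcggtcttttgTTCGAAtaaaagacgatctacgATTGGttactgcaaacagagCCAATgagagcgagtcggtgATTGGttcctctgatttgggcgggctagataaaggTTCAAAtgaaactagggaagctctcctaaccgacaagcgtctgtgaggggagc
Birc5: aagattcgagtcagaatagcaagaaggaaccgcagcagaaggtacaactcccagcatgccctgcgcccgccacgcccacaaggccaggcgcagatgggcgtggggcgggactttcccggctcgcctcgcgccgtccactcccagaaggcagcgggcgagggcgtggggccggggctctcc
Mcm6: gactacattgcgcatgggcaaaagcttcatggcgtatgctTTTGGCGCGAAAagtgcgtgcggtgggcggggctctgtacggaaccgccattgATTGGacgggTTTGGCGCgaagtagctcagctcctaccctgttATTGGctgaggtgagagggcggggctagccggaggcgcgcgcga
*Mki67*, *Ccnb2* and *Top2a* hold CHR and CCAAT letters in these stretches. *Mcm6* holds CCAAT letters and 3 E2F matches, of which a pair share bases on opposite strands. *Birc5* holds none of them in its whole window, which says only that these letters are not there. Over whole windows, CHR letters were present in 17 of 29 genes (58.6%), against 21.7% of the 27025 genes with a window. The CCAAT box was in 24 (82.8%) against 41.1%, and E2F letters were in 5 (17.2%) against 2.6%. By role, CHR letters were in 4 of 4 midzone and cytokinesis genes and 5 of 6 mitotic kinase and checkpoint genes with a window, in 2 of 6 genes of the helicase and clamp, and in 0 of 3 nucleotide synthesis genes. E2F letters were in 4 of 6 helicase and clamp genes, and the other gene that held them was *Cdk1*. A match is a description of the letters and was not tested as a binding site.

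Levels were compared between genes per kilobase of exon. In db/+, *Pcna* (the sliding clamp of the replication fork) at 4.7, *Mki67* (the Ki-67 protein that coats mitotic chromosomes) at 3.98 and *Mcm6* (a helicase subunit) at 3.57 mean CPM per kb led the list. In db/db the order was *Mcm6* at 4.94, *Pcna* at 4 and *Mcm4* at 1.44, with *Mki67* at 1.29. *Pcna* led in Con+Veh and STZ-HFD as well, at 4.4 and 3.95, followed by *Mcm3*, *Mcm4*, *Mcm6* and *Ccne2* (cyclin E2, of S phase entry) between 1.23 and 2.46. At the low end of the db groups stood *Bub1*, *Cdk1* and *Ccnb1*, between 0.0243 and 0.118 CPM per kb. The lowest were *Bub1*, *Ect2* and *Cdk1* in Con+Veh (0.0189 to 0.0338) and *Ccnb1*, *Aurkb* and *Ect2* in STZ-HFD (0.0603 to 0.168). Without STZ-HFD replicate 1 the lowest in that group were *Bub1*, *Ccnb1* and *Ect2*, at 0.00455, 0.0284 and 0.0408, and *Pcna* led at 4.77. The top 5 places in each group thus held genes of replication and cyclin E2, with *Mki67* among them in db/+ only.

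The summed level of the 36 genes was highest in db/+. It was 204, 131 and 153 CPM in the db/+ libraries, 123, 107 and 124 in db/db, 93.1, 98, 105 and 110 in Con+Veh, and 179, 91.8, 92 and 87.4 in STZ-HFD. The db/+ and db/db libraries did not overlap, and the STZ-HFD libraries lay on both sides of Con+Veh. *Mki67* alone made up 17.2% to 30.4% of the sum in db/+ and 7.02% to 17.3% in the other 3 groups. Without it, the sums were 142, 108 and 117 CPM in db/+ and 109, 92.8 and 113 in db/db, and these groups overlapped. Group means of the full sum were 163 ± 37.5 (SD, n = 3) in db/+, 118 ± 9.67 (n = 3) in db/db, 101 ± 7.36 (n = 4) in Con+Veh and 113 ± 44.3 (n = 4) in STZ-HFD, and 90.4 ± 2.59 in STZ-HFD without replicate 1. No test was made on these sums. In bulk RNA, fewer dividing cells and less RNA per dividing cell cannot be told apart, nor either from a changed share of RNA from other tissues.

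**Figure D1:**
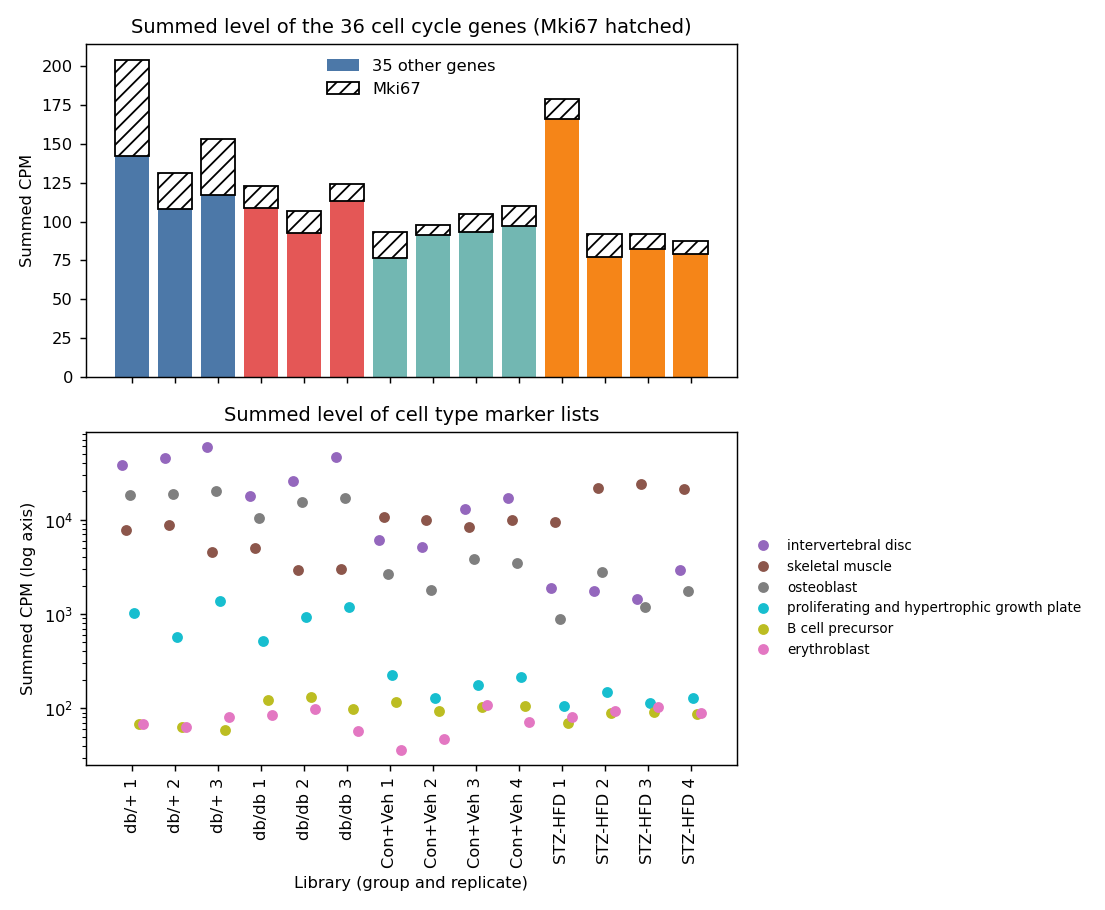
Upper panel: summed CPM (vertical axis) of the 36 cell cycle genes in each library, with the share of Mki67 hatched on top of the other 35 genes, coloured by group. Lower panel: summed CPM of 6 cell type marker lists in the same libraries on a log axis. The 3 db/+ bars (131 to 204 CPM) and STZ-HFD replicate 1 (179 CPM) exceed all others. The summed levels of the disc, osteoblast and growth plate lists are higher in the db groups than in Con+Veh and STZ-HFD.

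The tissue check was done on marker lists. Defining genes of cartilage-like disc tissue were present in every library, with *Acan* (aggrecan) at 318 to 9314 CPM, *Col2a1* (collagen II) at 110 to 12490 CPM and the notochordal gene *T* (brachyury) at 12.1 to 306 CPM. The list of 13 disc genes summed to 37508 to 59274 CPM in db/+, 17823 to 45946 in db/db, 5110 to 16899 in Con+Veh and 1448 to 2924 in STZ-HFD. These sums do not speak for each gene, since in db/+ against Con+Veh 6 of the 13 were higher and 7 lower. The 10 skeletal muscle markers summed to 4558 to 8771 CPM in db/+, 2953 to 5032 in db/db, 8320 to 10718 in Con+Veh and 9326 to 23604 in STZ-HFD. Markers of disc and of neighbouring tissue thus differed in level between the groups.

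Lists for tissues that hold dividing cells were examined as well. The 10 growth plate cartilage markers summed to 571 to 1370 CPM in db/+, 518 to 1188 in db/db, 128 to 224 in Con+Veh and 105 to 147 in STZ-HFD. The 11 erythroblast markers summed to 36.5 to 108 CPM and 12 B cell precursor markers to 59.1 to 132 CPM over all libraries. Of these lists 6 and 4 markers passed the filter. *Vpreb1*, which defines B cell precursors, was at 0 counts in every Con+Veh library, so the B cell sum does not by itself show these cells. The 10 neutrophil precursor markers summed to 0.27 to 6.58 CPM, and none of them passed the filter. *Elane*, which defines these precursors, was at 0 counts in the 3 db/+ libraries.

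The first comparison asked which of these genes differ between db/db and db/+ discs. *Mki67* fell in db/db and was the only 1 of the 33 genes tested to be called. A call here means an adjusted p below 0.05 together with a log2 fold change of 1 or more in size. Among all 16915 genes tested, 0.432% were called lower by this rule. Not one of the 33 was called higher. Before any filter on low counts, 30 of the 36 genes had a lower fitted level in db/db and 6 a higher one, with a median log2 fold change of -0.24. In the same fit 29037 of all 46963 genes with a count were lower and 17926 higher, with a median of -0.18. In the filtered fit 28 of the 33 genes were lower and 5 higher. Over all 16915 genes tested it was 8921 lower and 7994 higher, with a median of -0.04.

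*Mki67* (ENSMUSG00000031004, chromosome 7 from 135689784 to 135716361, minus strand, GRCm38) was at 61.9, 22.5 and 35.8 CPM in db/+ and at 13.6, 14.1 and 11.4 in db/db. All 3 db/db libraries lay below all 3 db/+ libraries, and the db/+ libraries differed more among themselves. The means were 40.1 ± 20 and 13 ± 1.45 CPM (SD, n = 3), from 723 to 3018 counts per library. Its log2 fold change was -1.47 (SE 0.31, 95% interval -2.12 to -0.83, adjusted p = 0.0284, limma with Benjamini-Hochberg adjustment). Without db/+ replicate 1, the highest library, it was -1.11 (SE 0.272, adjusted p = 0.0634 in limma), and the call was also lost without db/+ replicate 3 or any 1 of the 3 db/db libraries, at adjusted p of 0.0541 to 0.0904. edgeR's quasi-likelihood test gave an adjusted p of 0.179 for a log2 fold change of -1.62, voom without library weights 0.123 and transcript counts 0.0654, while DESeq2 gave 0.00869.

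*Foxm1* encodes the forkhead factor of the mitotic gene programme. Its level was 5.93, 3.63 and 5.64 CPM in db/+ and 3.78, 3.4 and 2.86 in db/db. The highest db/db library lay just above the lowest db/+ library. The log2 fold change was -0.54 (SE 0.31, 95% interval -1.19 to 0.11, adjusted p = 0.323, limma).

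The 3 genes of the helicase and clamp given here overlapped between the groups. *Pcna* was at 14.5, 12 and 7.35 CPM in db/+ and 9.55, 6.98 and 12.3 in db/db, with a log2 fold change of -0.24 (SE 0.40). *Mcm2* (a helicase subunit) was at 5.52, 3.97 and 4.45 CPM in db/+ and 4.74, 3.56 and 4.67 in db/db, with a log2 fold change of -0.09 (SE 0.26). *Mcm6* was at 15.2, 14.6 and 20.1 CPM in db/+ and 22.2, 16.1 and 30.9 in db/db, with a log2 fold change of 0.45 (SE 0.25, 95% interval -0.09 to 0.99). Over the 7 genes of the helicase and clamp, log2 fold changes ran from -0.33 to 0.45, and 4 were below 0. The 95% interval of *Mcm2* spanned -0.63 to 0.44, so a change in it by 1 log2 unit in either direction lay outside the interval, while that of *Pcna* reached -1.09. Of the 3 genes of nucleotide synthesis, *Tyms* (thymidylate synthase) had the lowest value, at -0.71 (SE 0.34, adjusted p = 0.233, limma), and *Rrm1* and *Rrm2* (ribonucleotide reductase) stood at -0.09 and -0.27.

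The next 4 genes had lower values in db/db and were not called. They are those with the smallest p after *Mki67*, so their direction is no finding about mitosis as a whole. *Plk1* (polo-like kinase 1) was at 3.45, 1.74 and 2.11 CPM in db/+ and 0.189, 1.25 and 0.896 in db/db, with a log2 fold change of -1.85 (SE 0.58, adjusted p = 0.0916, limma). *Ccnb2* (cyclin B2, an activator of CDK1) was at 2.2, 1.98 and 1.6 CPM in db/+ and 0.976, 0.89 and 0.88 in db/db, with a log2 fold change of -1.06 (SE 0.36, adjusted p = 0.115, limma). *Top2a* (topoisomerase II alpha, which untangles chromosomes) was at 8.88, 3.23 and 5.88 CPM in db/+ and 1.64, 3.3 and 2.55 in db/db, with a log2 fold change of -1.13 (SE 0.39, adjusted p = 0.123, limma). The groups did not overlap for *Plk1* and *Ccnb2* and met at a single pair of libraries for *Top2a*. *Kif23* (a motor of the spindle midzone) was at 1.5, 1.22 and 2.56 CPM in db/+ and 0.692, 0.861 and 0.99 in db/db, with a log2 fold change of -0.96 (SE 0.43, adjusted p = 0.217, limma).

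For 6 of the 33 genes, *Mki67*, *Ccne2*, *Ccnb2*, *Aurkb*, *Plk1* and *Kif23*, every db/db library lay below every db/+ library, as it did for 11.7% of all genes tested. An unadjusted p under 0.05 with a lower value was found for 8 of the 33 genes, against 10.4% of all genes tested, and for 0 with a higher value. Only *Aurkb* owed its place among the 33 to its db/+ libraries alone, so its place among the 6 and its lower value support no direction. The 4 cyclins tested had log2 fold changes of -0.60 to -1.06, and the 6 mitotic kinases, checkpoint genes and activators tested had values of -0.39 to -1.85. By contrast, *Cenpe*, *Cenpf* (kinetochore proteins), *Kif11* (the spindle motor Eg5), *Tpx2* and *Nusap1* (spindle proteins) lay between -0.28 and 0.19, and *Ect2*, *Anln* and *Kif20a* (cytokinesis) between -0.08 and -0.13. *Prc1*, another midzone gene, had -0.53 (SE 0.32). *Birc5* (survivin, of the chromosomal passenger complex) was at 1.4, 2.73 and 1.19 CPM in db/db against 3.2, 1.6 and 2.3 in db/+, and *Cenpf* at 3.04, 3.59 and 2.99 against 4.99, 2.24 and 3.78. Both overlapped between the groups.

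*Cdk1* and *Ccnb1*, the kinase and the cyclin of mitotic entry, had low counts and did not pass the filter. *Cdk1* had 33, 10 and 58 counts in db/+ and 6, 24 and 30 in db/db. *Ccnb1* had 30, 16 and 35 counts in db/+ and 16, 28 and 35 in db/db. Both overlapped between the groups, and in the fit without a filter their log2 fold changes were -0.63 and -0.08. *Bub1*, a spindle checkpoint kinase, had 2, 8 and 12 counts against 6, 9 and 6.

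Markers of other cell types moved in this comparison too. In db/db 1 of 10 muscle markers was called lower and 4 of 10 adipocyte markers and 1 of 10 endothelium markers were called higher. None was called of 13 disc, 10 osteoblast, 10 macrophage, 6 erythroblast or 4 B cell precursor markers. Of all 16915 genes tested, 208 were called higher and 73 lower, so a short list without a call says little. All 10 muscle markers had a lower value, 7 of them at an unadjusted p under 0.05. The osteoblast sums did not overlap, at 18066 to 19899 CPM in db/+ and 10428 to 16900 in db/db. Nor did those of B cell precursor markers, at 59.1 to 67.9 and 98.8 to 132, or endothelium markers, at 227 to 313 and 320 to 407. Of the B cell precursor markers, *Vpreb1* had 0, 4 and 0 counts in db/+ and 0, 14 and 14 in db/db. Growth plate sums overlapped, at 571 to 1370 and 518 to 1188 CPM, with 0 of 9 tested markers called. The part of tissue composition in the *Mki67* result was not tested.

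**Figure D2:**
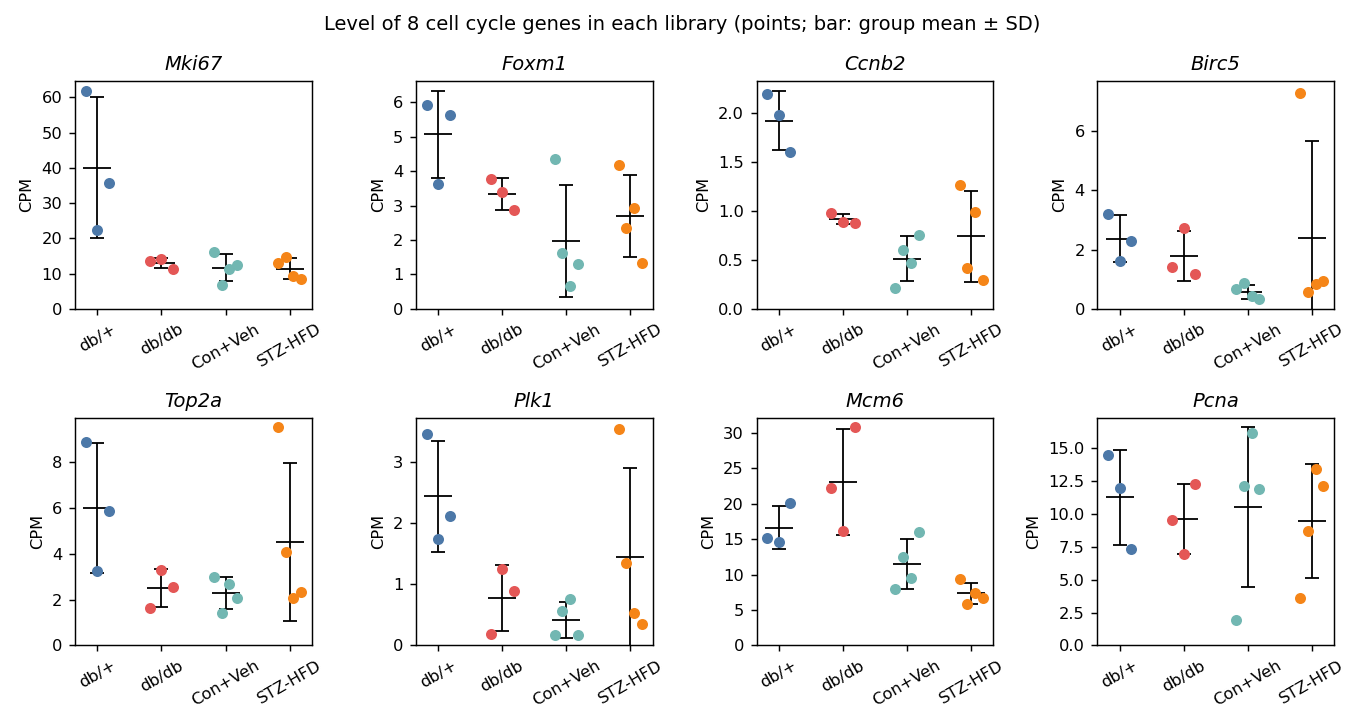
CPM (vertical axis) of 8 cell cycle genes in each library, by group; bars give the group mean and SD and are cut at 0. Mki67 and Ccnb2 are higher in each db/+ library than in each db/db library, Pcna overlaps across all groups, and STZ-HFD replicate 1 is the top STZ-HFD point for Birc5 (7.28 CPM), Top2a (9.5) and Plk1 (3.54).

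The same question was asked of STZ-HFD against Con+Veh. No gene of the 33 was called, against 2.61% of all genes tested called in either direction. edgeR's quasi-likelihood test and DESeq2 also called 0. At an unadjusted p under 0.05 limma found 2 of the 33 genes lower and 0 higher, against 17.9% of all genes tested in either direction, while edgeR found 4 higher and 1 lower and DESeq2 5 higher and 1 lower. The lowest adjusted p was 0.192 in limma, 0.269 in edgeR and 0.0945 in DESeq2. The direction of the list turned with the fit. Of the 33 genes, 17 were higher and 16 lower in limma (median log2 fold change 0.00, against -0.04 over all genes tested), and 21 were higher and 12 lower in both edgeR and DESeq2 (medians 0.38 and 0.40). In limma it was 13 and 20 without STZ-HFD replicate 1 (median -0.07). In the fit without a filter 13 of the 36 genes were higher and 23 lower, as 17008 and 29955 of all 46963 genes with a count were.

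*Mki67* did not separate these groups. It was at 16.1, 6.88, 11.2 and 12.4 CPM in Con+Veh and 12.9, 14.7, 9.41 and 8.32 in STZ-HFD. Its log2 fold change was -0.17 (SE 0.32, 95% interval -0.84 to 0.49, adjusted p = 0.826, limma), so that a fall by 1 log2 unit lay outside the interval. *Foxm1* was at 4.35, 1.62, 0.658 and 1.3 CPM in Con+Veh and 4.19, 2.34, 2.92 and 1.34 in STZ-HFD, and its log2 fold change was 1.00 (SE 0.53, adjusted p = 0.341, limma).

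None of the 7 genes of the helicase and clamp was called, with log2 fold changes of -0.69 to -0.04. Without library weights *Mcm3*, *Mcm5* and *Pcna* stood above 0, at 0.19, 0.16 and 0.19. *Mcm6* was at 7.93, 12.5, 9.54 and 16 CPM in Con+Veh and 9.41, 5.85, 7.42 and 6.72 in STZ-HFD, and its log2 fold change was -0.69 (SE 0.28, adjusted p = 0.192, limma). *Mcm4* was at 3.23, 6.27, 5.69 and 7.66 CPM in Con+Veh and 3.58, 6.09, 3.07 and 4.91 in STZ-HFD, and its log2 fold change was -0.54 (SE 0.30, adjusted p = 0.37, limma). *Mcm2* was at 5.87, 5.71, 3.85 and 5.49 CPM in Con+Veh and 7.32, 3.3, 3.26 and 2.76 in STZ-HFD. For *Mcm2*, 3 STZ-HFD libraries lay below all Con+Veh libraries and replicate 1 lay above them, and the log2 fold change was -0.50 (SE 0.29, adjusted p = 0.395, limma). *Pcna* was at 1.93, 12.1, 16.2 and 11.9 CPM in Con+Veh and 3.62, 8.73, 13.4 and 12.1 in STZ-HFD. In *Pcna* the first replicate of each group was low and the other 6 libraries overlapped, and its log2 fold change was -0.22 (SE 0.39).

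Of the mitotic genes, *Cenpe*, a kinetochore motor, was at 3.42, 1.45, 4.79 and 2.28 CPM in Con+Veh and 3.45, 1.48, 1.62 and 1.4 in STZ-HFD, and its log2 fold change was -1.02 (SE 0.43, adjusted p = 0.22, limma). *Kif20a*, a motor of cytokinesis, was at 1.58, 0.79, 0.564 and 0.109 CPM in Con+Veh and 1.97, 1.82, 0.745 and 1.28 in STZ-HFD, and its log2 fold change was 1.38 (SE 0.66, adjusted p = 0.285, limma). The groups overlapped in both. For *Ccnb2*, at 0.217, 0.603, 0.47 and 0.76 CPM in Con+Veh and 1.27, 0.413, 0.994 and 0.297 in STZ-HFD, the log2 fold change was 0.05 with a 95% interval of -1.28 to 1.38, which holds a change by 1 log2 unit in either direction. *Rrm1*, *Rrm2*, *Tyms*, *Ccne1*, *Ccne2*, *Ccna2*, *Aurka*, *Tpx2*, *Prc1* and *Anln* lay between -0.37 and 0.35, and *Aurkb*, *Bub1b*, *Cdc20* and *Nusap1* between -0.89 and -0.47. *Top2a* was at 2.99, 1.41, 2.68 and 2.06 CPM in Con+Veh and 9.5, 4.09, 2.08 and 2.35 in STZ-HFD, and *Plk1* at 0.163, 0.561, 0.752 and 0.163 and at 3.54, 1.34, 0.528 and 0.357. Their log2 fold changes were 0.24 (SE 0.49) and 0.44 (SE 0.93), and *Birc5*, *Cenpf*, *Kif11*, *Ect2* and *Kif23* stood at 1.04, 0.61, 0.55, 0.29 and -0.13. Without STZ-HFD replicate 1 *Top2a* and *Plk1* had 0.08 and 0.26, and those 5 had 0.81, 0.45, 0.40, -0.11 and -0.36, so *Ect2* changed sign. Disc (7 of 13), macrophage (4 of 10) and osteoblast (3 of 10) markers were called lower in STZ-HFD. Called higher were 5 of 10 muscle, 1 of 10 adipocyte and 1 of 6 erythroblast markers. Of all 16915 genes tested, 221 were called lower and 220 higher. The part of these marker shifts in the values above was not tested. In 0 of the 33 genes did all libraries of one group lie above all of the other, as they did for 4.74% of all genes tested.

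Within STZ-HFD, replicate 1 was far above the other 3 libraries for many of the listed genes of mitosis, though not for all. It was the highest of all 14 libraries for 20 of the 36 genes, and for 17 of the 33 tested, against 16.4% of all genes tested. By role, these were 5 of 5 midzone and cytokinesis genes, 5 of 6 chromosome, kinetochore and spindle genes, 4 of 7 mitotic kinase and checkpoint genes, 4 of 6 cyclins and *Cdk1*, 1 of 7 helicase and clamp genes, 1 of 3 nucleotide synthesis genes, and neither *Mki67* nor *Foxm1*. The level in replicate 1 was over 2 times the mean of the other 3 STZ-HFD libraries for 17 of the 33 genes tested (51.5%), against 18.2% of all genes tested. The median ratio was 2.24 over the 33 genes and 0.936 over all genes tested. *Cdc20*, a mitotic activator, had a ratio of 0.963. The wider cell cycle lists, described below, were mixed. Replicate 1 summed to 365 CPM against 170, 187 and 194 for mitotic entry and exit, and 117 against 60.3, 73.5 and 56.8 for mitotic motors. For kinetochore and checkpoint genes it was 93.6 against 71.5, 91.7 and 72, and for condensin and cohesin 211 against 213, 238 and 208.

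*Nusap1* was at 14.9 CPM (363 counts) in replicate 1 and at 1.07, 1.18 and 1.87 in the others. *Birc5* was at 7.28 CPM (177 counts) and at 0.55, 0.839 and 0.951. *Kif23* was at 7.32 CPM (178 counts) and at 0.757, 0.777 and 0.535. These levels exceeded every library of the other 3 groups, whose highest were 3.48 CPM for *Nusap1*, 3.2 for *Birc5* and 2.56 for *Kif23*. *Cenpf* was at 8.43 CPM (205 counts) against 1.17, 1.83 and 1.66. *Cdk1* was at 4.28 CPM (104 counts) against 0.138, 0.435 and 0.0595, and *Bub1* was at 3.29 CPM (80 counts) against 0, 0 and 0.0595. *Mki67*, at 12.9 CPM, lay within the range of the other STZ-HFD libraries, and *Pcna*, at 3.62 CPM, was 0.316 times their mean.

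Values that moved with replicate 1 were its depth and even counts, given above, and its marker sums. Its muscle sum was 9326 CPM against 21068 to 23604 in the other STZ-HFD libraries, its neutrophil precursor sum 6.58 against 0.654 to 1.75, and its epidermis sum 103 against 40.4 to 63.7. Its erythroblast and B cell precursor sums were 81.1 and 70.6 CPM, below the other 3 STZ-HFD libraries (88.9 to 103 and 86.5 to 90.7), and its growth plate sum was 105 against 113 to 147. *Vpreb1*, a defining B cell precursor gene, was at 1.44 CPM against 0.0297 to 0.155, and *Mpo*, of neutrophil precursors, at 1.52 against 0.0311 to 0.476. *Elane*, of the same precursors, was not highest there, at 0.247 CPM against 0.722, 0.0311 and 0.0595. Their part in the mitotic levels was not tested. Without replicate 1, limma again called 0 of the 33 genes in STZ-HFD against Con+Veh, with 3 lower and 0 higher at an unadjusted p under 0.05 and a lowest adjusted p of 0.138. That p belonged to *Nusap1*, whose log2 fold change was -1.08 (SE 0.40) without replicate 1 and -0.80 (SE 0.45) with it.

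**Figure D3:**
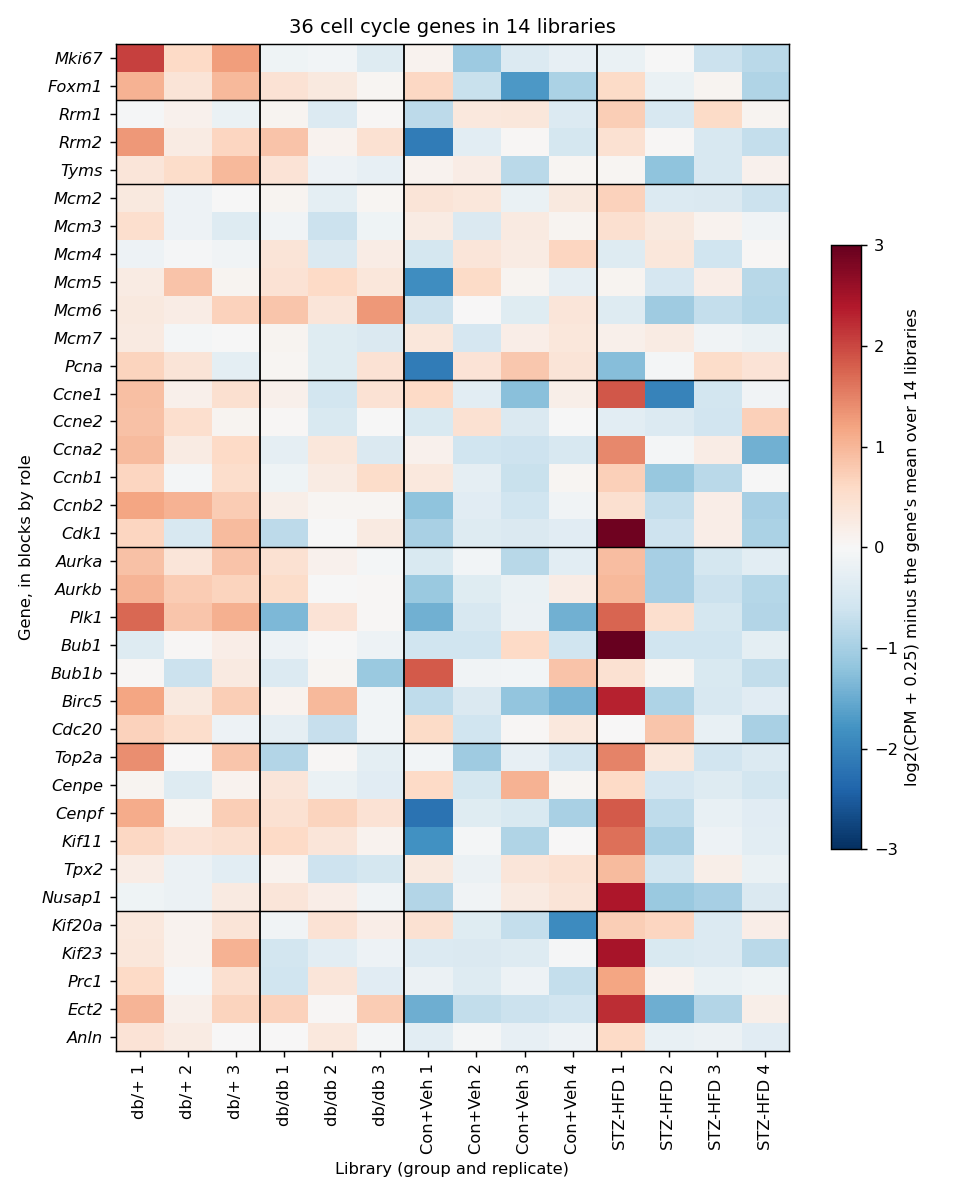
Level of the 36 genes (rows, in blocks by role) in the 14 libraries (columns): colour is log2(CPM + 0.25) minus the mean of that gene over the libraries, from blue (low) to red (high), with white at 0. STZ-HFD replicate 1 is red in most rows of the lower 4 blocks, which hold its 18 top genes among cyclins, kinases, spindle and cytokinesis, and db/+ replicate 1 is red for Mki67 and Plk1.

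Whether the response of a gene differed between the models was tested as the difference of the 2 contrasts. No gene of the 33 was called, against 1.77% of all genes tested. An unadjusted p under 0.05 was found for 4 genes, against 17.3% of all genes tested. *Mki67* had a difference of 1.30 (SE 0.44, 95% interval 0.37 to 2.23, adjusted p = 0.133, limma), the value in STZ-HFD being nearer 0 than that in db/db. *Mcm6* had a difference of -1.14 (SE 0.38, 95% interval -1.93 to -0.34, adjusted p = 0.126, limma), with opposite signs in the models. *Foxm1* (1.54, SE 0.61) and *Top2a* (1.37, SE 0.63) were the other 2, and *Plk1* had 2.29 (SE 1.10, adjusted p = 0.292, limma). The call of *Mki67* in db/db and its absence in STZ-HFD were therefore not shown to differ.

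The control groups were compared to place the levels of db/+. Here 4 of the 33 genes, *Mki67*, *Foxm1*, *Ccnb2* and *Birc5*, were called higher in db/+ than in Con+Veh, against 2.52% of all genes tested, and 0 were called lower. The groups did not overlap, with db/+ higher, for 16 of the 33 genes, against 9.36% of all genes tested. An unadjusted p under 0.05 with db/+ higher was found for 16, against 12.3%, and with db/+ lower for 0. *Aurkb* is in both counts of 16 although it passed the filter only through its db/+ libraries, so its own place in them supports no direction. Neither count was tested for the list as a whole, so no direction of the list is drawn from them. These libraries are the same db/+ libraries that stand in the db/db comparison, so the comparisons share their controls, and genotype, age and cohort cannot be told apart here.

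*Mki67* was at 22.5 to 61.9 CPM in db/+ and 6.88 to 16.1 in Con+Veh, with a log2 fold change of 1.69 (SE 0.30, adjusted p = 0.0027, limma). *Ccnb2* was at 1.6 to 2.2 CPM in db/+ and 0.217 to 0.76 in Con+Veh (1.81, SE 0.49, adjusted p = 0.029, limma). *Birc5* was at 3.2, 1.6 and 2.3 CPM in db/+ and 0.652, 0.873, 0.423 and 0.326 in Con+Veh (2.21, SE 0.67, adjusted p = 0.046, limma). In these 3 genes every db/+ library lay above every Con+Veh library. *Foxm1* had a log2 fold change of 2.17 (SE 0.48, adjusted p = 0.0103, limma), although Con+Veh replicate 1, at 4.35 CPM, lay above db/+ replicate 2, at 3.63. Without Con+Veh replicate 3 the *Foxm1* value was 1.44 (adjusted p = 0.177, limma). The *Foxm1* value was 1.34 in edgeR (adjusted p = 0.154), 1.32 in DESeq2 (0.108) and 1.45 without library weights (0.11), and the call was lost in each. DESeq2 called *Mki67*, *Ccnb2* and *Plk1*, and edgeR called *Mki67* alone. *Mki67* was called in all 14 fits that left out 1 library, *Foxm1* in 12, *Ccnb2* in 9 and *Birc5* in 4. Leaving out Con+Veh replicate 3 or Con+Veh replicate 4 left *Mki67* as the only 1 called.

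Next in order of p stood *Cenpf*, at 4.99, 2.24 and 3.78 CPM in db/+ and 0.272, 1.62, 1.5 and 0.978 in Con+Veh (1.47, SE 0.48, adjusted p = 0.0623, limma). Roles differed in their values, with no test between roles. Without a filter, median log2 fold changes were 1.51 over 7 mitotic kinase and checkpoint genes, 1.24 over 6 genes (cyclins and *Cdk1*), 1.10 over 3 nucleotide synthesis genes, 0.97 over 5 midzone genes, 0.60 over 6 chromosome and spindle genes and -0.01 over 7 genes of the helicase and clamp, against -0.53 over all genes with a count, many of them near 0 counts, and 0.02 over the 16915 genes tested in the filtered fit. The unfiltered fit called 14 of the 36 higher, and over all 46963 genes it called 1513 higher and 14502 lower.

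Between db/db and Con+Veh no contrast was fitted. The *Mki67* levels of db/db (11.4 to 14.1 CPM) lay within those of Con+Veh (6.88 to 16.1). *Ccnb2* in db/db (0.88 to 0.976 CPM) lay above Con+Veh and below db/+.

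Tissue markers moved with the control groups. Of the growth plate markers 8 of 9 tested were called higher in db/+ than in Con+Veh. So were 9 of 10 osteoblast, 5 of 13 disc and 1 of 4 satellite cell markers. Called lower were 5 of 10 adipocyte, 3 of 10 muscle, 3 of 10 macrophage and 1 of 10 endothelium markers. Of all 16915 genes tested, 427 were called higher and 693 lower. The disc list was split, with 6 of 13 markers higher and 7 lower and a median log2 fold change of -0.08. The growth plate sums were 571 to 1370 against 128 to 224 CPM and the osteoblast sums 18066 to 19899 against 1807 to 3788 CPM. Their part in the higher cell cycle levels was not tested.

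**Figure D4:**
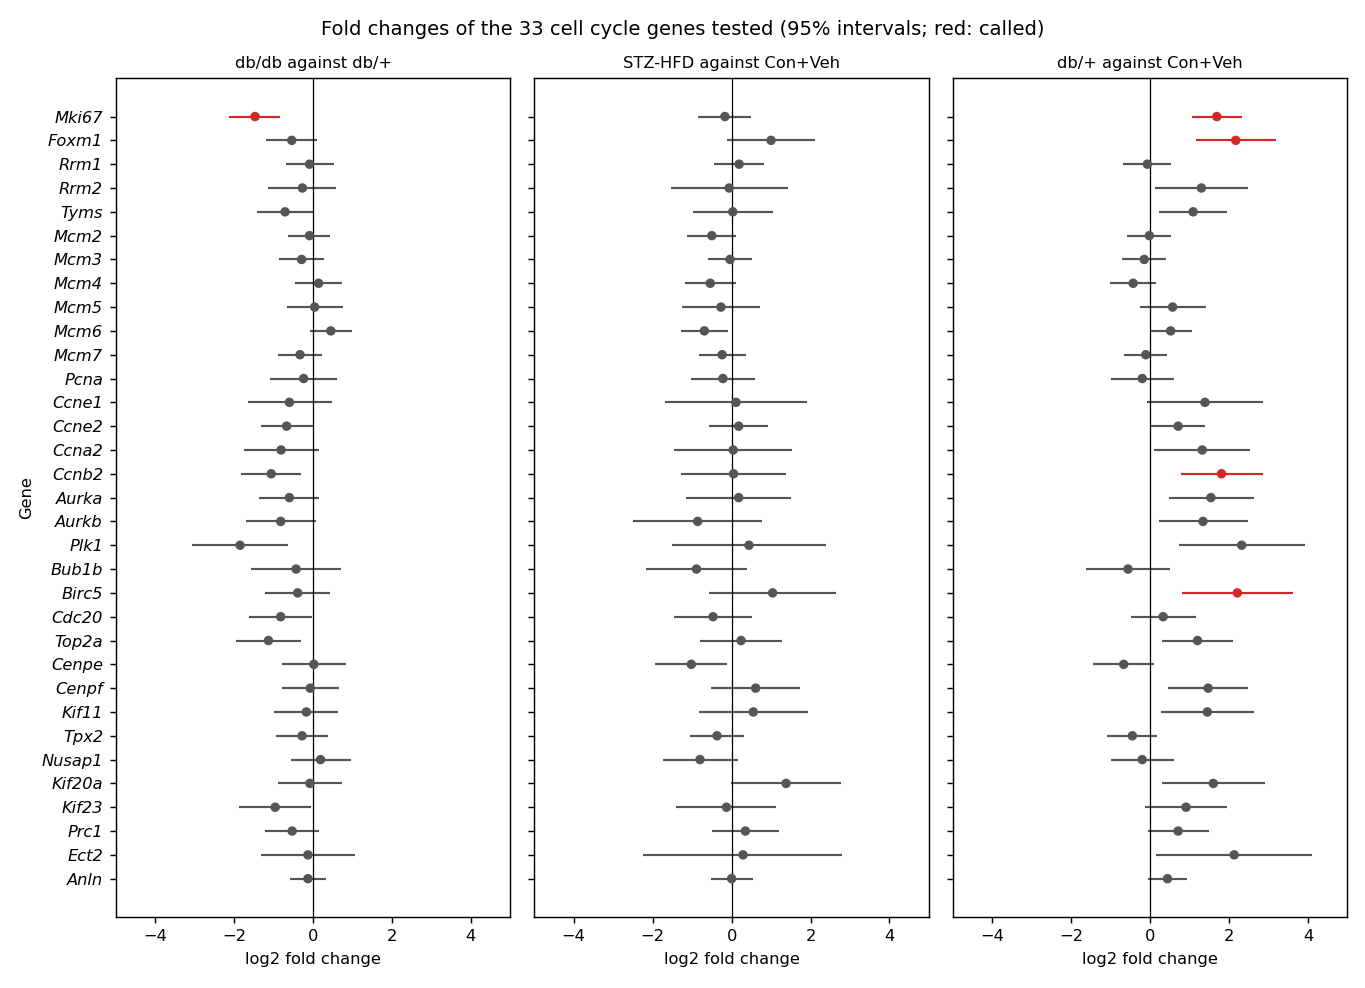
log2 fold change (horizontal axis) of the 33 cell cycle genes tested, with 95% intervals from limma, in 3 comparisons; red marks genes called. Mki67 is red at -1.47 in db/db against db/+, no gene is red in STZ-HFD against Con+Veh, and Mki67, Foxm1, Ccnb2 and Birc5 are red in db/+ against Con+Veh.

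The wider cell cycle was read from 8 lists of 153 other genes, of which 124 were tested. In db/db against db/+ 0 of them were called, against 1.66% of all genes tested in either direction, with 7 higher and 9 lower at an unadjusted p under 0.05, against 21.1% of all genes tested in either direction. In STZ-HFD against Con+Veh 1 of the 124 was called, against 2.61% of all genes tested, in the list of 10 G1 cyclins and kinases. That gene was *Ccnd1* (cyclin D1, which couples growth signals to the cycle), at 55.8, 27.1, 46.5 and 36 CPM in Con+Veh and 12.7, 32.3, 15.2 and 22.1 in STZ-HFD. It fell by 1.08 on the log2 scale (SE 0.25, adjusted p = 0.0269, limma), with STZ-HFD replicate 2 inside the Con+Veh range.

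In the other lists the gene with the smallest p did not pass the call rule. Of the CDK inhibitors *Cdkn1c* (p57) was at 10.6, 7.62 and 15.5 CPM in db/+ and 13.7, 25.9 and 36.6 in db/db (1.18, SE 0.32, adjusted p = 0.0587, limma), and *Cdkn1a* (p21) had -0.70 (SE 0.24, adjusted p = 0.123) in STZ-HFD. Among kinetochore and passenger genes *Cdca8* (borealin) was at 2.93, 1.97 and 2.22 CPM in db/+ and 1.05, 0.488 and 1.18 in db/db (-1.47, SE 0.39, adjusted p = 0.0566, limma). *Mybl2* (B-MYB) was at 2.71, 2 and 2.7 CPM in db/+ and 1.04, 1.25 and 1.46 in db/db (-0.95, SE 0.35, adjusted p = 0.137, limma). In both, every db/db library lay below every db/+ library. *Ccnd3*, *Kif18b* and *Ccnf* had values of -0.79, -2.31 and -0.66, and *Orc4* (origin recognition) 0.58. *Stag2*, a cohesin subunit, had an adjusted p of 0.0327 in limma at a log2 fold change of 0.88, under the minimum of 1. In STZ-HFD *E2f5*, *Chaf1b*, *Kif14* and *Ccnf* had values of -0.92, -1.21, -1.27 and -1.08, and *Bub3* and *Pttg1* (securin) 0.47 and 0.72.

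In db/+ against Con+Veh 6 of the 124 were called, against 6.62% of all genes tested in either direction. Naming these followed a look at their values. *Cdk6*, *Ccnd2*, *Mybl2*, *Racgap1* and *Wee1* were higher in db/+ by 1.01 to 1.77 on the log2 scale, and *Uhrf1* was lower. For the difference between the models 0 of the 124 were called, against 1.77% of all genes tested, with 6 higher and 9 lower at an unadjusted p under 0.05 in limma.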

How the data were processed

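RNA-seq of pooled caudal discs of 14 mice was used. Per the submitters' processing notes and the study's methods, reads were aligned with STAR 2.7.9a1 to the Ensembl GRCm38 genome and counted with featureCounts 2.0.32, versions as printed in the sources; the strand setting is not given in the sources used here. The authors deposited whole-number counts per gene without normalization, and estimated counts per transcript from Salmon 1.5.23, which were summed per gene and rounded for 1 alternative. Of 55774 lines, 287 repeated an identifier and were dropped. Columns of the 14 mice only were present (0 others).

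Groups and replicate numbers came from the sample labels. The filter kept genes that exceeded 1 CPM in 3 or more libraries, and edgeR 4.0.16 (TMM), limma 3.58.1 (voomWithQualityWeights, the study's method) and DESeq2 1.42.0 were run in R 4.3.3, with a mean per group and Benjamini-Hochberg adjustment over all genes tested. A call needed an adjusted p below 0.05 and a log2 fold change of 1 or more in size. The 95% intervals come from limma and include the spread between mice, while the limit of 3 counts covers counting error only, at a depth of 16076908 to 58943169 counts per library. Each library is 1 mouse by its label, and the 18 replicate pairs differed by a chi-square of 54.8 to 578 per degree of freedom. The tests were tried on simulated data.

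Values per library are given for genes called in any comparison, the 5 smallest p per comparison, and 7 chosen by name (*Mki67*, *Top2a*, *Cdk1*, *Ccnb1*, *Pcna*, *Mcm2*, *Foxm1*). In each wider list the genes called in db/db or STZ-HFD, or the 1 with the smallest p, are named. The rule for the 36 genes is a list of names and uses no measured value, but that list and all other lists were chosen with earlier results of these data known. Promoters came from RefSeq (GRCm38.p6), positions and exon lengths from GENCODE M21. As alternatives, the quasi-likelihood test of edgeR and DESeq2 replaced limma, voom ran unweighted, scaling used RLE size factors, the filter was filterByExpr or absent, and the fit used the groups of a contrast alone, a replicate block, transcript counts, no fold change minimum, removal of ribosomal RNA genes or of the GC trend (20 bins), and leaving out single libraries or both libraries whose names end alike (Con+Veh replicate 2 and STZ-HFD replicate 4).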

Additional observations from a re-analysis of the deposited data

Results flagged for a closer look

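In groups of 4 mice, a library was marked where its gap to the nearest other library took up more of the range of the group than Dixon's 95% critical value for 4 values allows. Of 72 combinations of gene and group (36 genes in Con+Veh and in STZ-HFD), 16 were marked. Chance marks about 1 in 20 where values are normally distributed, which counts near 0 are not. Over all 16915 genes tested, 8.09% were marked in Con+Veh and 10.4% in STZ-HFD, 6.02% with STZ-HFD replicate 1 as the highest.

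In STZ-HFD, replicate 1 was the marked library for 12 genes, 11 of them genes of mitosis and *Mcm2*. *Mcm2* was at 7.32 CPM against 2.76 to 3.3 in the other 3 libraries, *Cdk1* at 4.28 against 0.0595 to 0.435, *Aurkb* at 1.27 against 0.138 to 0.248, and *Bub1* at 3.29 against 0 to 0.0595. *Birc5* was at 7.28 CPM against 0.55 to 0.951, *Cenpe* at 3.45 against 1.4 to 1.62, *Cenpf* at 8.43 against 1.17 to 1.83, and *Kif11* at 3.45 against 0.344 to 0.808. *Nusap1* was at 14.9 CPM against 1.07 to 1.87, *Kif23* at 7.32 against 0.535 to 0.777, *Prc1* at 6.25 against 2.24 to 2.79, and *Anln* at 7.65 against 3.84 to 4.32. The other marked gene in STZ-HFD was *Ccne2* (cyclin E2), at 8.95 CPM in replicate 4 against 3.51 to 4.23. The 12 marks in replicate 1 belong to a single mouse and library and are not separate findings.

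In Con+Veh, 3 genes were marked, each in another library. *Ccna2* (cyclin A2) was at 1.2 CPM in replicate 1 against 0.611 to 0.706, *Bub1* at 0.329 (7 counts) in replicate 3 against 0 in the others, where any count would be marked, and *Kif23* at 1.09 in replicate 4 against 0.769 to 0.799.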

How the results depend on the processing

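The number of the 36 genes called in db/db against db/+ was 1. It was 0 with edgeR's quasi-likelihood test, voom without library weights and transcript counts, 5 with a replicate block, and 0 to 1 when single libraries were left out, with 0 for db/+ replicates 1 and 3 and each db/db replicate. The other 9 alternatives called 1. In db/+ against Con+Veh the number was 4. It was 1 with edgeR's quasi-likelihood test, voom without library weights and transcript counts, 2 with the replicate block or without both libraries whose names end alike, 14 without a filter, and 1 to 5 when single libraries were left out. In STZ-HFD against Con+Veh and for the difference between the models it was 0 under every alternative run. Which cause lay behind these shifts was not tested.

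With a replicate block, *Top2a* (-1.68) and *Ccnb2* (-1.10) were called in db/db as well as *Mki67*, with *Ccna2* and *Plk1*. Same-numbered libraries did not vary together (correlations of their deviations from group means from -0.25 to 0.175 over 7 pairs), so the numbers do not pair the mice. The mean summed level became 296 CPM in db/+, 218 in db/db, 187 in Con+Veh and 207 in STZ-HFD after removal of ribosomal RNA genes, since a smaller total divides the same counts, and it moved by less than 1 SD with RLE size factors.

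The values that changed sign were not called in any of these fits. In STZ-HFD *Mki67* had 0.00 without library weights, 0.03 with transcript counts and -0.31 to 0.05 when single libraries were left out. *Ccnb2* had -0.33 with transcript counts and -0.38 to 0.51 without single libraries, and *Top2a* -0.15 with transcript counts. *Pcna* had 0.19 without library weights, 0.07 without a filter, 0.12 with transcript counts and -0.46 to 0.30 without single libraries. In db/db *Pcna* had -0.49 to 0.01 without single libraries, and *Mcm2* had 0.02 after removal of the GC trend and -0.20 to 0.04 without single libraries. Of the other values of named genes under an alternative, 423 kept direction and side of the threshold, 39 lost a call and 2 gained one. The contrast of the models could not be fitted with the groups compared alone. Depth limits *Cdk1*, *Ccnb1* and *Bub1* in all groups, and most mitotic genes in Con+Veh and STZ-HFD, where 9 to 24 of the 36 genes had under 50 counts in a library.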

Other observations

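*Uhrf1*, which keeps DNA methylation in place after replication, varied widely between mice of 1 group. It was at 0.978, 14.1, 106 and 198 CPM in Con+Veh and at 18.2, 11.5, 51.4 and 40.7 in STZ-HFD, but at 2 to 3.3 CPM in the 6 libraries of the db groups. Its log2 fold change in db/+ against Con+Veh was -5.20 (SE 0.98, adjusted p = 0.0042, limma), although Con+Veh replicate 1 lay below all 3 db/+ libraries. It was chosen after its values were seen.

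Con+Veh replicate 1 and STZ-HFD replicate 1 were the lowest libraries of their groups for *Pcna* (1.93 and 3.62 CPM against 11.9 to 16.2 and 8.73 to 13.4), and the fit gave them the lowest weights of the 14 libraries, 0.275 and 0.379. These genes were chosen after their values were seen. The same libraries were the lowest and the highest of their groups for *Kif11*, *Cenpf* and *Ect2*, at 0.0815, 0.272 and 0 CPM in Con+Veh replicate 1 and 3.45, 8.43 and 2.96 CPM in STZ-HFD replicate 1.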
